A study of Rattus norvegicus with 2 samples.

Results

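The glycolysis and hypoxia genes described here are 32 rat genes: 16 glycolytic enzymes, 3 transporters that carry glucose or lactate across the cell membrane, 3 enzymes that set the rate of glycolysis or of pyruvate oxidation, and 10 other genes known as targets of the hypoxia response. Members were found by name, as gene probes whose RefSeq accession is a transcript of a listed gene. No measured value enters that rule, but the list was chosen with earlier results of these data known. A probe was found for 31 of the 32 genes, and 29 were measured, of 9022 named genes measured in all. The study measured RNA of RMT-1 cells, clone E4, a rat mammary tumour cell line, on 2 one-colour arrays. The Pla2g4c siRNA array came from cells transiently transfected with an siRNA against Pla2g4c, a cytosolic phospholipase A2, and the control array from cells transfected with a negative control siRNA. The time after transfection is not given in the labels, and both arrays are of 1 clonal line. Since each group has 1 array, nothing could be tested or checked against replicates, and each difference compares these arrays and not the treatments.

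Glycolysis splits glucose into pyruvate in a chain of enzymes, and lactate dehydrogenase then turns pyruvate into lactate. Many of these genes, together with genes for blood vessel growth, pH control and collagen modification, are switched on when oxygen is low, because the transcription factor HIF-1 then escapes hydroxylation by the Egln enzymes and binds short hypoxia response elements. Tumour cells often keep this programme active in the presence of oxygen as well.

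Levels below are the scanner software's processed signal divided by the 75th percentile of all gene spots on that array, which was 1105 in Pla2g4c siRNA cells and 852 in control siRNA cells. Differences are given as log2 of the level in Pla2g4c siRNA cells minus log2 of the level in control siRNA cells. The ± beside a difference comes from the software's error estimates of both signals and leaves out any variation between cultures or arrays. Over the members its minimum and its median were both 0.204. For most genes it is thus nearly 1 fixed value and not a spread particular to the gene. A gene was measured where a probe was well above background on both arrays. Signals of different probes are not compared as amounts of RNA. No probe was matched to Pla2g4c, so the knockdown was not checked here. Of 8 markers of mammary epithelium 7 were measured, against 2 of 7 of fibroblasts, 2 of 6 of immune cells and 1 of 4 of endothelium. The summed level of the epithelial markers was 262 in Pla2g4c siRNA cells and 565 in control siRNA cells. That sum adds signals of different probes, so it is no amount of RNA and is set by the brightest probes. Its part in the results below was not tested. Krt14 and Krt5, keratins of basal cells, made up most of that sum and differed by -0.97 ± 0.20 and -1.72 ± 0.20. Of the 7 measured markers 2 were above 0, Epcam (1.03 ± 0.20) and Krt8 (0.86 ± 0.27). Krt8 had low levels, 0.055 in Pla2g4c siRNA cells and 0.031 in control siRNA cells. Cdh1, Krt7 and Krt19 were below 0, at -0.63 ± 0.20, -0.31 ± 0.20 and -0.30 ± 0.21, and Krt18 was dim on both arrays.

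The 2 members with the highest difference, Car9 and Adm, were hypoxia targets outside glycolysis. Among the other hypoxia targets, Car9, Adm and P4ha2 were higher in the Pla2g4c siRNA array by 1.34, 0.96 and 0.73, and the median of the 9 measured genes was 0.20. Among the enzymes, Hk2 was higher by 0.78 and Aldoc lower (-0.85 ± 0.36), and the other 14 lay between -0.33 and 0.27, with a median over all 16 of -0.11. The enzyme median minus the other hypoxia target median was -0.32, and it was -0.0058 under quantile normalization. All 29 members together had a median of -0.05, and all 9022 genes one of -0.01.

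Of the members 1, Car9, reached a 2-fold higher level and 0 a 2-fold lower one, where 2.92% of all genes were higher and 3.05% lower by that much. At 1.5-fold, 5 members were higher (Car9, Adm, P4ha2, Hk2 and Pfkfb4) against 8.69% of all genes, and 1 was lower (Aldoc) against 10.3%. Under normexp background correction, which treats dim signals differently, Hk2 at 0.58, Pfkfb4 at 0.15 and Aldoc at -0.43 were short of 1.5-fold. Of the members 14 were above 0 and 15 below, and of all genes 49% were above 0.

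**Figure D1:**
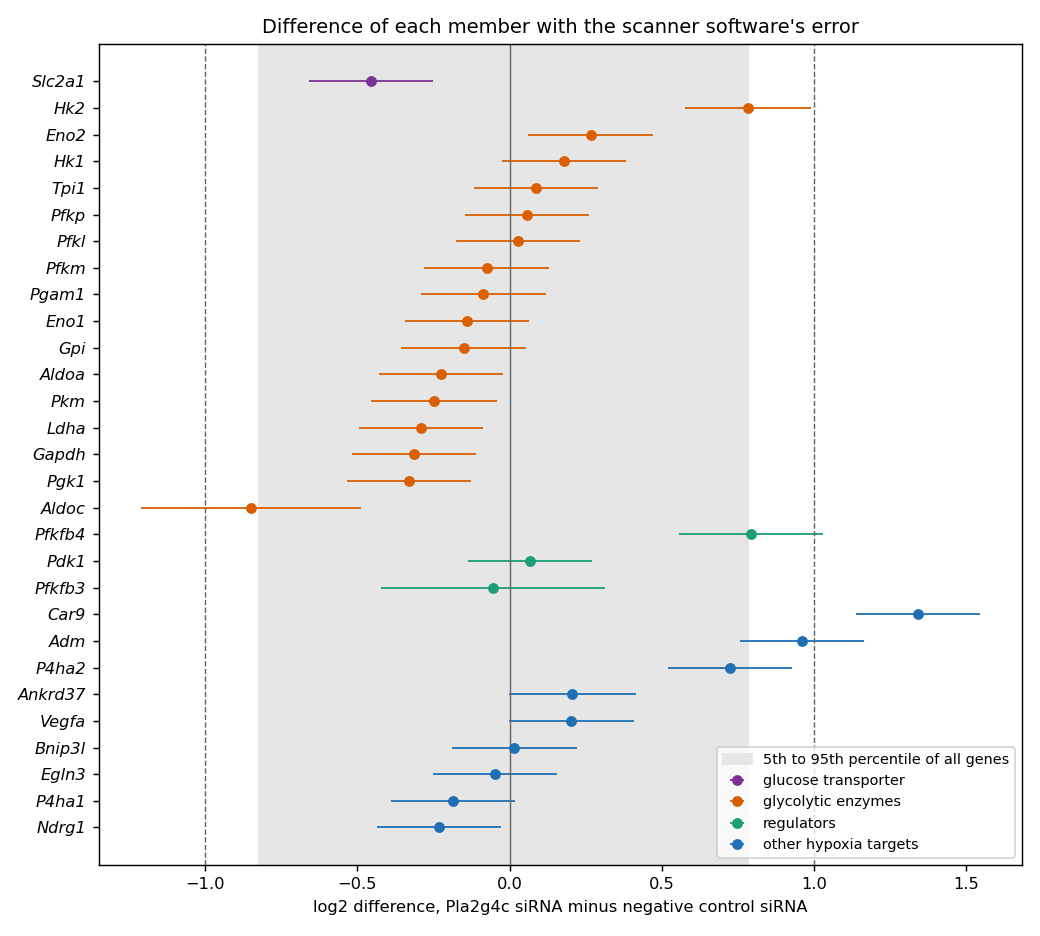
Log2 difference of each of the 29 measured members, Pla2g4c siRNA minus negative control siRNA, on the horizontal axis, ordered within 4 roles; bars are the scanner software's error, dashed lines mark 2-fold and the grey band runs from the 5th to the 95th percentile of all genes (-0.82 to 0.78). Car9 is the member beyond 2-fold, and most enzymes lie within 0.33 of 0.

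To show where the hypoxia response element core stands in these genes, promoters of the RefSeq table (GRCr8, 250 bases before to 50 after the annotated transcript start) were searched for ACGTG and GCGTG on both strands, with overlapping matches counted. Of 33 promoters of 28 members, 21 held a match (63.6%), against 41.6% of all 33469 promoters in the table. The members' promoters also held more CG dinucleotides, with a median of 19 against 7, and among promoters with at least 15 CG the shares were 81.8% of 22 for members and 70.2% of 10717 in all. By role, 13 of 19 enzyme promoters and 5 of 9 promoters of the other hypoxia targets held a match. The stretches below belong to members on both sides of 0, Car9, P4ha2 and Ankrd37 with a value above 0 and Slc2a1 and Ldha with a value below 0. Capitals mark the matches, and a match on the minus strand reads CACGT or CACGC. All 5 stretches are printed from the plus strand, 5′ to 3′. They lie at chr5:62559000-62559029 for Car9, chr10:38743724-38743863 for P4ha2, chr16:53001447-53001507 for Ankrd37, chr5:138002432-138002521 for Slc2a1 and chr1:106507992-106508094 for Ldha.
Car9: ccctacccagctcttatttccgatgCACGT
P4ha2: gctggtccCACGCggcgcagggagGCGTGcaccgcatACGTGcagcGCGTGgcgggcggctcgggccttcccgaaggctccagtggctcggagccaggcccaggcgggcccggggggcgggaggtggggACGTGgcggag
Ankrd37: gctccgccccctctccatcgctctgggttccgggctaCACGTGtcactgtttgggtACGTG
Slc2a1: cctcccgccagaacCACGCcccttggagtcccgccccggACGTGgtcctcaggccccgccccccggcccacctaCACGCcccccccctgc
Ldha: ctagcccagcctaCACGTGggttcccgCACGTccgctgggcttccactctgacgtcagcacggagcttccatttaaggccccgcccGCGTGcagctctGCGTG
P4ha2 held 5 matches in its promoter, Ldha 6, Slc2a1 4, Ankrd37 5 and Car9 1. The printed stretches show 5 of these for P4ha2, 5 for Ldha, 3 for Slc2a1, 3 for Ankrd37 and 1 for Car9. Under the 75th percentile scaling, members with a match thus stood on both sides of 0. The side is not firm for each of them. Slc2a1 and Ldha were above 0 under quantile normalization, at 0.06 and 0.27, and Ankrd37 differed by 0.21 ± 0.21. Adm, the second highest hypoxia target, had 0 matches in its window. A match is a run of letters in these windows and says nothing of binding.

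Glucose enters these cells through facilitative transporters, of which Slc2a1 (GLUT1) is the widespread basal form. Its 10 spots lay between 59.4 and 63.3 in Pla2g4c siRNA cells, with a median of 61.4, and between 80.2 and 86.5 in control siRNA cells, with a median of 84.6. The spots of the arrays did not overlap, and the difference was -0.45 ± 0.20. Under quantile normalization it was 0.06, and under cyclic loess -0.12. Slc2a3 (GLUT3), a high-affinity form known from neurons, and Slc16a3 (MCT4), which exports lactate, were too dim to be well above background on any array and have no difference. Slc2a1 was therefore the 1 measured transporter among the members.

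The first step, phosphorylation of glucose by hexokinase, showed a split between isoforms. Hk2, the inducible isoform and a known HIF-1 target, had a level of 0.32 in Pla2g4c siRNA cells and 0.18 in control siRNA cells, which is 1.72-fold higher (0.78 ± 0.21). Its 2 spots on each array did not overlap. Hk1, the widespread isoform, had a level of 2.20 with Pla2g4c siRNA and 1.94 with control siRNA, a difference of 0.18 ± 0.20. Hk2 minus Hk1 was 0.60, where the error of that difference was 0.29.

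Gpi, which converts glucose 6-phosphate to fructose 6-phosphate, differed by -0.15 ± 0.20. Phosphofructokinase commits fructose 6-phosphate to glycolysis and has 3 isoforms. Pfkl, the liver type, differed by 0.03 ± 0.20 over 2 probes, Pfkm, the muscle type, by -0.08 ± 0.20, and Pfkp, the platelet type, by 0.06 ± 0.20. All 3 were smaller than the error.

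Aldolase cleaves the phosphorylated sugar. Aldoa, the main isoform outside liver and brain, had a level of 31.4 in Pla2g4c siRNA cells and 36.7 in control siRNA cells (-0.22 ± 0.20). Aldoc, the brain isoform, rested on 1 spot of 1 probe with a level of 0.016 with Pla2g4c siRNA and 0.029 with control siRNA, close to the background. Its second probe was dim on both arrays.

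Most enzymes of the later steps were slightly lower in Pla2g4c siRNA cells. Gapdh, which oxidises glyceraldehyde 3-phosphate and has many processed pseudogenes in the rat genome, was lower on all 3 probes, by -0.41, -0.25 and -0.28. Pgk1, which makes the first ATP of the pathway, had a level of 124 in Pla2g4c siRNA cells and 156 in control siRNA cells, and differed by -0.33 ± 0.20. Ldha, which turns pyruvate into lactate and whose promoter is printed above, had a level of 110.4 with Pla2g4c siRNA and 135 with control siRNA and differed by -0.29 ± 0.20. For these 3 genes no spot in Pla2g4c siRNA cells reached the lowest control spot of the same probe. Repeat spots share the scaling of their array, and under quantile normalization Gapdh, Pgk1 and Ldha were above 0, at 0.18, 0.24 and 0.27. Whether the probes of Gapdh also bind pseudogene transcripts was not tested.

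Triose phosphate isomerase, Tpi1, went the other way on both its probes, by 0.06 and 0.11. Pgam1, the mutase before enolase, differed by -0.09 ± 0.20, and its spots overlapped between the arrays. Eno1, the widespread enolase, differed by -0.14 ± 0.20, and Eno2, the neuronal enolase, by 0.27 ± 0.20. The difference of Eno2 minus Eno1 was 0.40 with an error of 0.29.

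Pkm, pyruvate kinase, had 2 probes that disagreed. The brighter one, with 1 spot, had a level of 21.6 in Pla2g4c siRNA cells and 19.7 in control siRNA cells (0.14 ± 0.20). The dimmer one, with 2 spots, had a level of 0.13 with Pla2g4c siRNA and 0.19 with control siRNA (-0.63 ± 0.21). Both carry the same accession, so which of the splice forms M1 and M2 each detects was not determined. The mean of both, -0.25, stands for neither.

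**Figure D2:**
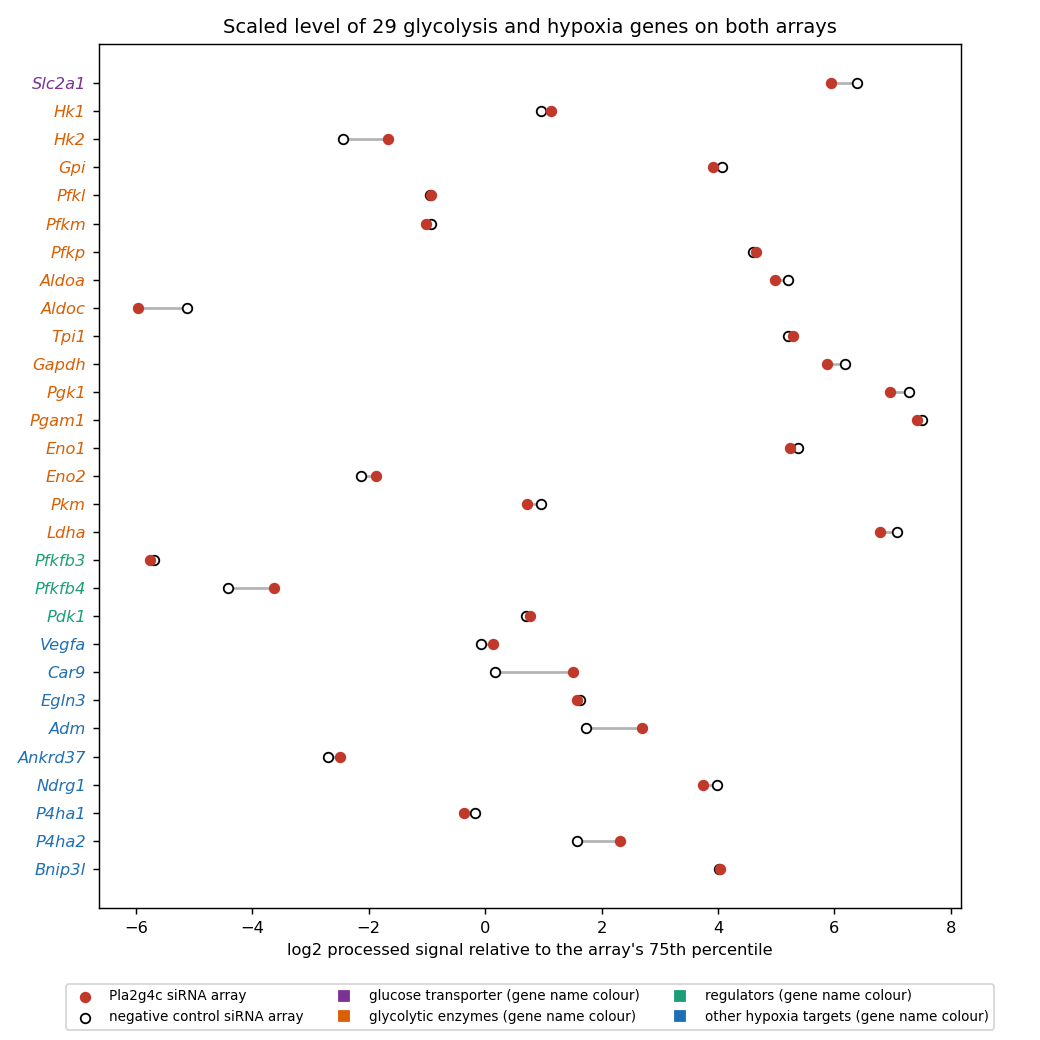
Scaled level of the 29 measured members in Pla2g4c siRNA cells (red) and the negative control siRNA array (white), as log2 of the signal over the array's 75th percentile, with gene names coloured by role. The widest gaps are those of Car9, Adm, Aldoc, Pfkfb4, Hk2 and P4ha2; positions of different genes reflect their probes and are not compared.

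Of the regulators, Pfkfb4, a kinase and phosphatase that sets the level of the activator fructose 2,6-bisphosphate, had a level of 0.081 in Pla2g4c siRNA cells and 0.047 in control siRNA cells. It was 1.73-fold higher (0.79 ± 0.24), and its difference under normexp background correction was 0.15. Pfkfb3, the isoform with the highest ratio of kinase to phosphatase activity, rested on 1 spot near background with a level of 0.019 with Pla2g4c siRNA and 0.019 with control siRNA (-0.06 ± 0.37). Pdk1, which keeps pyruvate from being turned into acetyl-CoA by inhibiting pyruvate dehydrogenase, differed by 0.07 ± 0.20.

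Among the other hypoxia targets, Car9, the cell surface carbonic anhydrase that helps tumour cells export acid, had a level of 2.85 in Pla2g4c siRNA cells and 1.12 in control siRNA cells. Its spots lay between 2.82 and 2.87 in Pla2g4c siRNA cells and between 1.11 and 1.13 in control siRNA cells, and did not overlap. The difference was 1.34 ± 0.20, or 2.54-fold, and 98.4% of all genes had a lower one. It was at least 2-fold higher under all 10 alternatives to the processing, where its difference ran from 1.32 to 1.89. Most of these could not alter it relative to other genes. Car9 has 1 probe, so the choices of probe, filter and flag left its value unchanged. Median scaling, the deposited values and spike-in scaling shift all genes alike. Normexp gave 1.32, quantile normalization 1.33 and cyclic loess 1.34.

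Adm, adrenomedullin, a secreted vasodilator peptide, was measured by 10 spots. They lay between 6.24 and 6.80 in Pla2g4c siRNA cells, with a median of 6.41, and between 3.05 and 3.51 in control siRNA cells, with a median of 3.33. All 10 spots in Pla2g4c siRNA cells were above all 10 control spots, and the difference was 0.96 ± 0.20, or 1.95-fold.

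The prolyl hydroxylases that modify collagen differed from each other. P4ha2 had a level of 4.96 in Pla2g4c siRNA cells and 3.0 in control siRNA cells (0.73 ± 0.20). P4ha1 had a level of 0.78 with Pla2g4c siRNA and 0.89 with control siRNA (-0.19 ± 0.20). Each encodes a catalytic subunit of collagen prolyl 4-hydroxylase, and P4ha2 minus P4ha1 was 0.91, where the error was 0.29.

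Vegfa, the main growth factor of blood vessels, was measured by 4 probes for 2 accessions. All 4 were slightly above 0, at 0.24, 0.15, 0.16 and 0.27, with a mean of 0.20 ± 0.21. Ankrd37, an ankyrin repeat protein and HIF-1 target, had 9 spots that overlapped between the arrays. They ran from 0.17 to 0.20 in Pla2g4c siRNA cells and from 0.14 to 0.18 in control siRNA cells, and the difference was 0.21 ± 0.21.

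The remaining targets were near or below 0. Egln3, an oxygen-dependent hydroxylase that marks HIF for degradation and is itself induced by HIF, differed by -0.05 ± 0.20, and its spots overlapped. Bnip3l, a mitophagy receptor, differed by 0.02 ± 0.20. Ndrg1, a stress-induced protein of differentiating epithelia, had a level of 13.5 in Pla2g4c siRNA cells and 15.8 in control siRNA cells (-0.23 ± 0.20). No probe was matched to Egln1, the main hydroxylase of HIF.

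**Figure D3:**
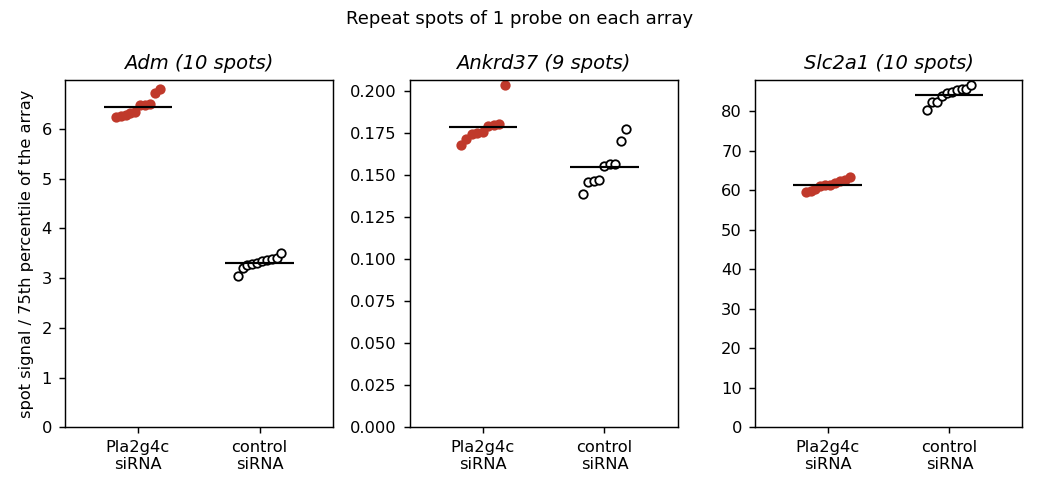
Signal of each repeat spot over the array's 75th percentile, for the 3 members with 9 or 10 spots of 1 probe; red points are the Pla2g4c siRNA array, white points the control array, lines the means. The spots of Adm and Slc2a1 separate in opposite directions, and those of Ankrd37 overlap; repeat spots share 1 RNA sample.

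Genes with the brightest probes were lower as a group, and 8 of the 16 enzymes were among them. The 417 genes with a mean scaled log2 level of 4 or more had a median difference of -0.27, with quartiles of -0.57 and -0.05. The 10 members in that range, 8 of them enzymes, had a median of -0.18, and 6 of the 10 lay above the median of the 417. The 4 ranges below had medians over all genes between -0.03 and 0.03. Of the 9 measured other hypoxia targets, 1, Bnip3l, was in the bright range. Among the 19 members below it, the enzyme median was -0.02 and that of the other hypoxia targets 0.20, a difference of -0.23.

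**Figure D4:**
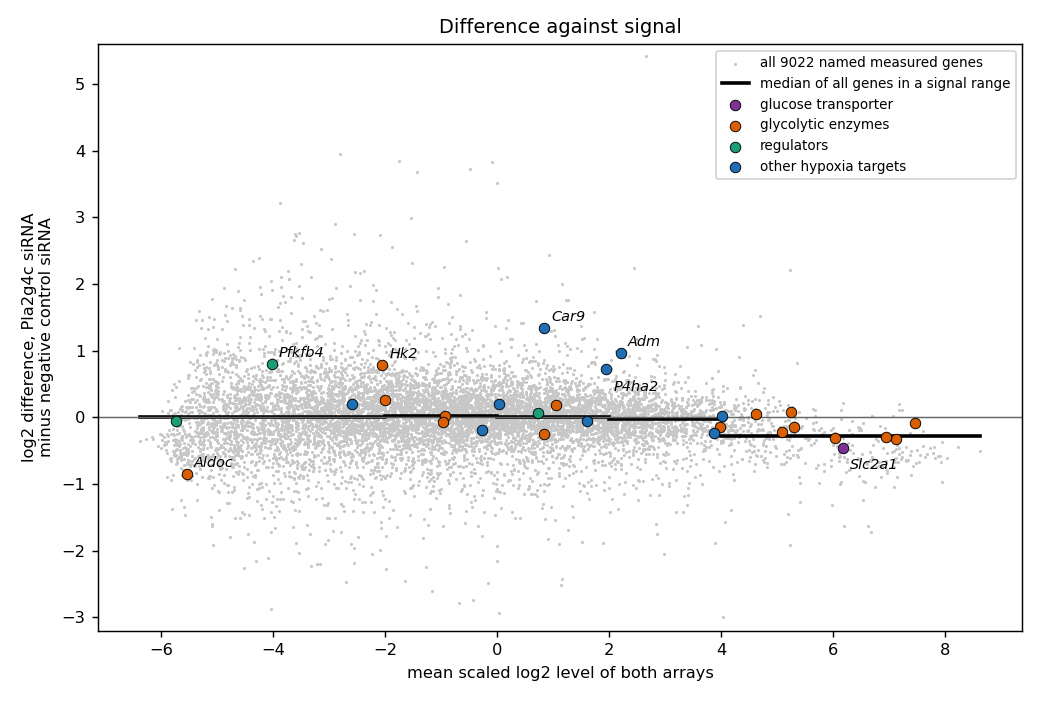
Log2 difference, Pla2g4c siRNA minus negative control siRNA, against the mean scaled log2 level of both arrays, for all 9022 named genes (grey) and the members by role; black lines are medians of all genes in 5 signal ranges. The bright enzymes run from -0.33 (Pgk1) to 0.09 (Tpi1), where the lowered median of the brightest range is -0.27. Car9, Adm and P4ha2 lie above the line at moderate signal.

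The enzyme median shifted with the way the arrays were brought to a common scale. Quantile normalization gave medians of 0.20 for the enzymes and 0.21 for the other hypoxia targets, with 12 of 16 enzymes above 0. Cyclic loess gave 0.09 for the enzymes and 0.21 for the other targets, and normexp background correction -0.10 and 0.05. With the 75th percentile 6 of 16 enzymes and 6 of 9 other targets were above 0. The direction of Slc2a1, which was 0.09 at its highest, and of most bright enzymes (Aldoa, Gapdh, Pgk1, Pgam1, Eno1 and Ldha) depended on the scaling, while Pfkp, Tpi1, Car9, Adm, P4ha2, Hk2 and Pfkfb4 were above 0 under every alternative that measured them.

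**Figure D5:**
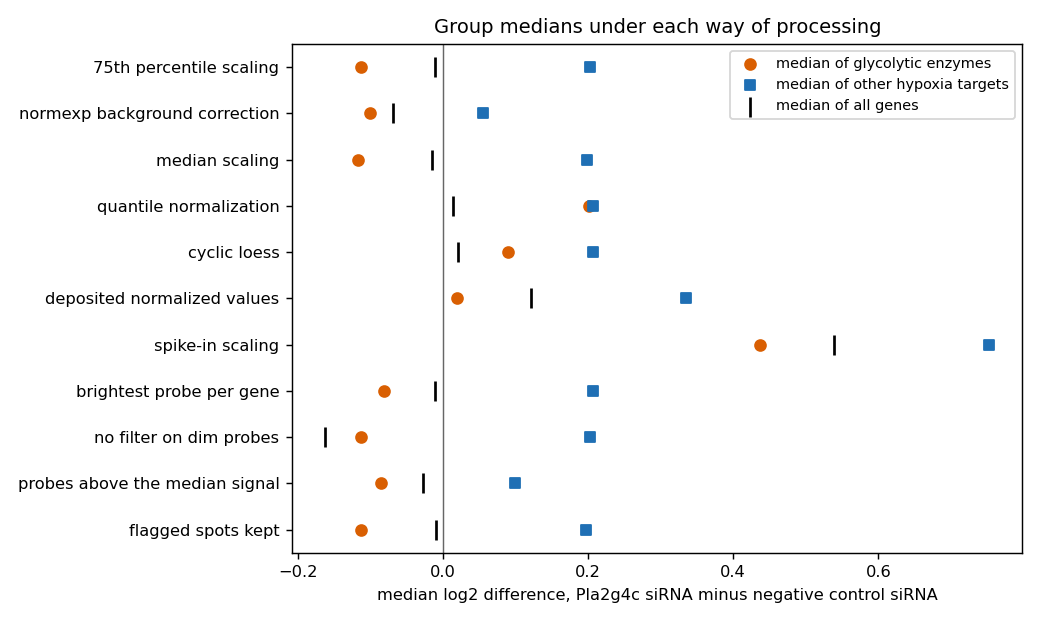
Median log2 difference, Pla2g4c siRNA minus negative control siRNA, of the 16 enzymes (circles), the 9 other hypoxia targets (squares) and all genes (ticks) under each way of processing; with only the brighter probes 13 and 8 members remain. The medians of the enzymes and the other targets coincide under quantile normalization, and spike-in scaling moves all 3 medians up.

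The machinery that senses oxygen was described from a separate list. All 7 measured genes of 10 were above 0, as were 49% of all genes, with a median of 0.43. Under the alternatives, run on this list after the data were seen, the median lay between 0.20 with normexp, where 5 of the 7 genes were above 0, and 0.98 with spike-in scaling, where 88.7% of all genes were above 0. Most of these genes were dim, with a median scaled log2 level of -3.58 against -0.88 for all genes. With brighter probes only 2 genes were left, and with the brightest probe per gene 6 of 7 were above 0, with a median of 0.30. Cited2, a HIF-induced protein that competes with HIF for its coactivator, was highest at 1.12 ± 0.22, with a level of 0.12 in Pla2g4c siRNA cells and 0.057 in control siRNA cells. Under normexp background correction 0 of the 7 genes, Cited2 included, were 2-fold higher. Hif1an, the asparagine hydroxylase that blocks HIF activity, differed by 0.58 ± 0.23, and Hif1a, the oxygen-regulated subunit of HIF-1, by 0.57 ± 0.20. Vhl, which targets HIF for degradation, and Arnt, the constant partner of HIF-1, were lowest at 0.21 ± 0.20 and 0.26 ± 0.25. Epas1 and Hif3a, the other oxygen-regulated subunits, were dim on both arrays.

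Of 31 further hypoxia targets 20 were measured, with a median of 0.12. Of these 1 was over 2-fold higher and 0 were that much lower, against 2.92% and 3.05% of all genes. Under the alternatives the median ran from 0.00075, with brighter probes only and with no dim filter, to 0.67 with spike-in scaling. Angptl4, a secreted inhibitor of lipoprotein lipase, was 3.77-fold higher (1.91 ± 0.21), with a level of 0.43 in Pla2g4c siRNA cells and 0.12 in control siRNA cells. Bnip3, a mitophagy receptor related to Bnip3l, followed at 0.77 ± 0.20. Ddit4, an inhibitor of mTORC1, and Gbe1, the glycogen branching enzyme, were lowest at -0.73 ± 0.20 and -0.69 ± 0.21. Of these 20 genes 12 were above 0, as were 49% of all genes.

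Isoforms and relatives of the glycolytic enzymes, 8 measured of 13, had a median of 0.48, where all genes had one of -0.01. Of the 8 genes 7 were above 0, as were 49% of all genes. Under normexp background correction the median was 0.35 with 6 above 0, and with brighter probes only 3 genes were left. Of the 8 genes 1, Hk3, was over 2-fold higher and 0 were that much lower, against 2.92% and 3.05% of all genes. Hk3, a hexokinase known from blood cells, had a level of 0.53 in Pla2g4c siRNA cells and 0.18 in control siRNA cells (1.56 ± 0.21). Pfkfb1, the liver isoform of the regulator, differed by 0.90 ± 0.20. Adpgk, which phosphorylates glucose with ADP, differed by 0.02 ± 0.20.

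Among 8 measured sugar and lactate transporters outside the member list, of 11, the median was 0.07, and -0.12 under normexp background correction. Slc2a6, a glucose transporter family member known from macrophages, was 4.91-fold higher (2.30 ± 0.24), with a level of 0.19 in Pla2g4c siRNA cells and 0.040 in control siRNA cells. It was followed by Slc2a8 at 0.23 ± 0.21. Slc2a5, the fructose transporter, and Slc2a4, the insulin-responsive form, were lowest at -0.31 ± 0.20 and -0.26 ± 0.34.

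The branches that lead away from glycolysis held 0 genes at 2-fold, where 2.92% of all genes were higher and 3.05% lower by that much. In lists this short, 0 is near that share. Under spike-in scaling 2 genes of the pyruvate list were at least 2-fold higher. With no dim filter 1 gene of gluconeogenesis was 2-fold higher and 1 lower. Carriers and enzymes that take up or convert pyruvate in mitochondria had a median of 0.06 over 11 measured genes of 13, from Pc, pyruvate carboxylase (0.83 ± 0.20), and Dlat (0.52 ± 0.20) to Pdha1 (-0.10 ± 0.20) and Mpc2, a subunit of the pyruvate carrier (-0.34 ± 0.20). The pentose phosphate pathway had a median of 0.10 over 6 measured genes of 7. Pgls (0.38 ± 0.20) and Rpia (0.37 ± 0.20) were its highest, and Tkt, transketolase (-0.37 ± 0.20), and Taldo1 (-0.14 ± 0.20) its lowest. Of 6 genes of gluconeogenesis 2 were measured, Pck2 at -0.50 ± 0.20 and G6pc3 at -0.31 ± 0.21.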

How the data were processed

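Cy3-labelled cRNA of each cell sample was measured on 1 Agilent rat array. The deposited scanner files hold spot intensities which the authors extracted with the Agilent software Feature Extraction, version 10.10.1.1 per the file headers (the submitters' processing notes give 10.10), background-subtracted and detrended within each array and not normalized between arrays. The deposited flags, which are other values of 0 or 1, were used as given. A table of normalized intensities, deposited by the authors, equals the processed signal times 1.50 for the Pla2g4c siRNA array and 1.77 for the control array. The sources used here do not give the reason for these constants. Both arrays shared 1 slide and 1 scan, so there was no batch to test.

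Outlier spots of either array were dropped (381 gene spots for Pla2g4c siRNA and 466 for control siRNA carried the flag, 0 were saturated) and log2 values averaged per probe. A probe was kept if each spot left passed the well-above-background flag in both files (16840 of 30367). That flag was set for 63.1% of gene spots for Pla2g4c siRNA and 61.9% for control siRNA. The number of arrays limits the precision. RefSeq accessions named 59.3% of probes (GRCr8 table), and a gene is the mean of its measured probes. The steps were tested on simulated data for the comparison over 9022 genes, where all 50 genes at each true log2 difference of 1.5, -1.5, 3 and -3 were found and 0 unchanged genes reached 2-fold. The simulated noise was that of repeat spots within an array (SD 0.055 in log2). Scaling and variation between cultures or arrays were not simulated. The run therefore checks the averaging of spots and probes, and cannot show how many differences in the real data are false.

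The members and lists were chosen with earlier results of these data known. All members are named, and of each further list the 2 highest, the 2 lowest and all at 2-fold, of which 1 is not reported here. Signal ranges, isoform differences and alternatives for the further lists were chosen after seeing the data. The alternatives were normexp (offset 50, on median signals), median, quantile, cyclic loess and spike-in scaling (7 RNAs), the deposited normalized values, the brightest probe, no dim filter, brighter probes only, and flagged spots kept. R 4.3.3, limma 3.58.1, Python 3.11.15, numpy 2.4.6, pandas 2.3.3 and matplotlib 3.10.9 were used.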

Additional observations from a re-analysis of the deposited data

How the results depend on the processing

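No paired analysis was possible because each group has 1 array, and for the same reason no array could be left out. Quantile normalization gave a median of 0.18 for all members and 0.20 for the enzymes, and an enzyme median minus other hypoxia target median of -0.0058. Under spike-in scaling, which moved all genes by 0.55, the median was 0.54 for all genes, 0.50 for all members, 0.44 for the enzymes and 0.75 for the other hypoxia targets. Against the median of all genes under the same scaling the enzymes were then at -0.10 and the other targets at 0.21, as with the 75th percentile. These 2 values could not differ, because the shift is the same for every gene. The number of members at least 2-fold apart was 1, and 2 under quantile normalization, cyclic loess and the deposited normalized values, 5 with spike-in scaling and 6 at a 1.5-fold threshold. The other values of these medians and counts moved by less than the members' median error of 0.20. Of 284 values of single members under the alternatives, 51 moved by at least the member's own error, 29 of them with spike-in scaling, and 0 of those at 2-fold changed sign. In all, 13 members were above 0 and 1, Aldoc, below 0 under every alternative that measured them. Without Aldoc and Pfkfb3, chosen after seeing the data, the median of all members was 0.02. Of all 9022 genes, 263 were at least 2-fold higher and 275 lower in Pla2g4c siRNA cells, against 116 and 154 under normexp background correction, 369 and 190 in the deposited normalized values, with 62.8% above 0 in place of 49%, and 1186 and 68 with spike-in scaling, with 88.7% above 0. Signal over background limits Aldoc, Pfkfb3 and Pfkfb4, and the number of arrays limits every value.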
